A study of Mus musculus with 4 samples.

Results

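The 10 genes Apoe, Trem2, Gpnmb, Fabp4, Fabp5, Lpl, Plin2, Lgals3, Cd36 and Pltp, often used to mark lipid-associated macrophages, were followed through the immune cells of 4 mouse melanoma samples. They were chosen as a list of names, with no cut on their measured values but with earlier results of these data known. They are 10 of the 32285 genes counted. The tumours grew from YUMM1.7 melanoma cells, which carry an activating Braf mutation and here express ovalbumin (OVA), in Rag2-/- mice, which make no T or B cells of their own. OT-1 T cells, which recognise an OVA peptide, were transferred on day 7, and CD45+ cells were sorted on day 10, 72 h later, for single-cell RNA sequencing. NTT tumours came from a line that had not met targeted therapy and RTT tumours from a line resistant to it, and both lines carry names of the kind given to clones. RTT_ROSA26 cells are RTT cells with a guide against the ROSA26 locus as the editing control, and RTT_PTGS12KO cells are RTT cells edited in Ptgs1 and Ptgs2, the genes of both cyclooxygenases that start prostaglandin synthesis. The edits sit in the injected cancer cells, so Ptgs1 and Ptgs2 counts of sorted immune cells are no check of these labels. The host strain, the OVA antigen and the T cell transfer were common to all groups.

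Lipid-associated macrophages take up, store and export lipid, and they are known from fat tissue, atherosclerotic plaques and tumours. Trem2 senses lipids and dying cells at their surface, lipoprotein lipase (Lpl) releases fatty acids from lipoproteins, the scavenger receptor Cd36 takes lipid up, and fatty acid-binding proteins carry it inside the cell. Perilipin 2 (Plin2) coats the lipid droplet, while apolipoprotein E (Apoe) and phospholipid transfer protein (Pltp) act on the way out.

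Each group was 1 sample, for which the labels give 1 tumour and the study's figure legends describe pooled tumours, so no test between groups was possible. Counts of unique molecular identifiers (UMIs) were summed over cells and scaled to 1000000 UMIs of the same cells (CPM), with 95% intervals that cover counting error only. The cells were run in 3 chip loads, and the range over loads gives the technical spread within a sample, not the spread between tumours. There were 6836 to 10296 cells per sample, with medians of 7292.5 (NTT) to 13280 UMIs per cell. Of the barcode sequences, 98 occurred in more than 1 cell, and 0 were repeated within a load. Cell type names are the authors' own. Monocytes (Monocyte_1, Infl_Mono and Monocyte_3) numbered 6619, 522, 144 and 4015, and macrophages (TAM_C1q, TAM_Spp1, TAM_cycling, TAM_H2Ab1 and Ctsk_Macro) 308, 6734, 5993 and 5207, in the order NTT, RTT, RTT_ROSA26, RTT_PTGS12KO. This order is kept wherever 4 values stand without sample names. Most NTT macrophages were TAM_H2Ab1 (192 cells), most RTT macrophages TAM_C1q (3412) or TAM_Spp1 (2057), and the edited samples held mainly TAM_C1q, TAM_cycling and TAM_Spp1. The leading genes bore out some names only in part. Ctsk_Macro was led by Ctsk and other osteoclast genes such as Mmp9 and Acp5. TAM_Spp1 was led by the platelet gene Ppbp, with Arg1 at rank 3 and none of the listed macrophage markers among its top 10. TAM_cycling was led by proliferation genes, as its name says. Infl_Mono was led by interferon genes, by which the paper identifies inflammatory monocytes, with the monocyte marker Chil3 at rank 6. The small Macro group, led by Lyve1 and Retnla, was kept apart.

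A few sequences tie the genes to the design. The designed guides show what was edited in the cancer cells of RTT_PTGS12KO.
Ptgs1: gcacacggaaggaaacatag
Ptgs2: gttgtgctcccgaagccaga
Nuclear receptors of the PPAR and LXR families, which many lipid genes respond to, bind repeats of the hexamer AGGTCA. This hexamer was found, as TGACCT on the opposite strand, in the promoters of 3 members. They are printed as RefSeq gives them (build GRCm38.p6), for the 250 bases before the start, with the hexamer in capitals.
Plin2, chr4:86670060-86670309, minus strand: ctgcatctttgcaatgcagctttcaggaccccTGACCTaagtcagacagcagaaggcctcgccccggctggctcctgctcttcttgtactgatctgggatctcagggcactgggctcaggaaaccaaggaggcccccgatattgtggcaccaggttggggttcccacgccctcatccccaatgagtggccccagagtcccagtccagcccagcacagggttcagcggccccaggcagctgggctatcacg
Cd36, chr5:17835897-17836146, minus strand: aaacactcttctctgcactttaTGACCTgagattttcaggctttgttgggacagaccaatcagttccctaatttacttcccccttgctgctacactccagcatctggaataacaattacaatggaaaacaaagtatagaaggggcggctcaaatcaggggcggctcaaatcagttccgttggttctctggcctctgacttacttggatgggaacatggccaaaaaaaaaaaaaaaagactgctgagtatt
Trem2, chr17:48346151-48346400, plus strand: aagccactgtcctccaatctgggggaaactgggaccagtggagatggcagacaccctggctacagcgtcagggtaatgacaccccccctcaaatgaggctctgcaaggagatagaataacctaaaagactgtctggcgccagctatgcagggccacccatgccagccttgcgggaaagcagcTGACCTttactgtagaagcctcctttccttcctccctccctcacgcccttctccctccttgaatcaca
The hexamer began 218 bases before the start in Plin2, 228 in Cd36 and 68 in Trem2, and the Cd36 start lies inside the annotated span of the gene. Promoters of 7 members were matched, with 9 start sites, of which 3 held the hexamer on either strand, as did 14% of all 32851 promoters. Fabp4, Fabp5 and Lpl had no promoter entry and were not searched. The direct repeats of the hexamer with 1 base between (in 0.0335% of promoters) or 4 bases between (0.0152%) were found in 0 of the matched promoters. The matched promoters held 0 matches to the E-boxes CACGTG (in 6.02% of promoters) and CATGTG (12.3%) and to the cyclic AMP element TGACGTCA (1.55%). These matches describe letters, not binding.

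Over the pooled monocytes and macrophages of a sample, the members did not differ in one direction. NTT held less Apoe, Fabp5, Gpnmb and Trem2 than RTT and more Lpl and Cd36, each by at least 2-fold. Of the 10 members, 9 reached 10 CPM in the higher sample and Fabp4 did not. When NTT was set against RTT, 2 of the 9 were at least 2-fold higher, as were 7.74% of the 7276 genes over the same level, and 4 were at least 2-fold lower, as were 7.94%. When RTT_PTGS12KO was set against RTT_ROSA26, Cd36 was the 1 member higher by that margin (3.95% of 7368 genes) and Apoe the 1 lower (1.97%). When RTT_ROSA26 was set against its parent RTT, Lpl was the 1 higher (0.714% of 7285 genes) and Gpnmb the 1 lower (1.07%). The comparisons share samples, so they are not independent of each other. The median log2 ratio of the members was -0.35, -0.50 and -0.0039 in these comparisons, beside -0.11, -0.14 and 0.07 over all genes. Without Ctsk_Macro, a setting chosen after seeing the data, the median of NTT against RTT was 0.018. TMM scaling factors shifted the median of all genes to 0.04, 0.03 and -0.02, and none of the 9 members changed direction under them.

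Because NTT cells were mostly monocytes and RTT cells mostly macrophages, these pooled values also carry the mix of cells, and each kind of cell was taken alone. In macrophages, 2 members (Cd36 and Lpl) were at least 2-fold higher in NTT than in RTT (5.6% of genes were) and 4 (Apoe, Fabp5, Gpnmb, Trem2) lower (3.83%). Cd36 was again the 1 member higher (2.46%) and Apoe the 1 lower (0.969%) in RTT_PTGS12KO than in RTT_ROSA26, and Lpl the 1 higher (0.604%) and Gpnmb the 1 lower (0.783%) in RTT_ROSA26 than in RTT. In monocytes, Lpl was the 1 higher (1.84%) and Apoe the 1 lower (1.65%) in NTT than in RTT. Against RTT_ROSA26, monocytes of RTT_PTGS12KO had 2 members higher, Lpl and Cd36 (2.22%), and 1 lower, Apoe (2.47%). Of the 8 members that reached 10 CPM in RTT_ROSA26 or RTT monocytes, Cd36 was the 1 higher (2.2%) and 0 were lower (2.54%).

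**Figure D1:**
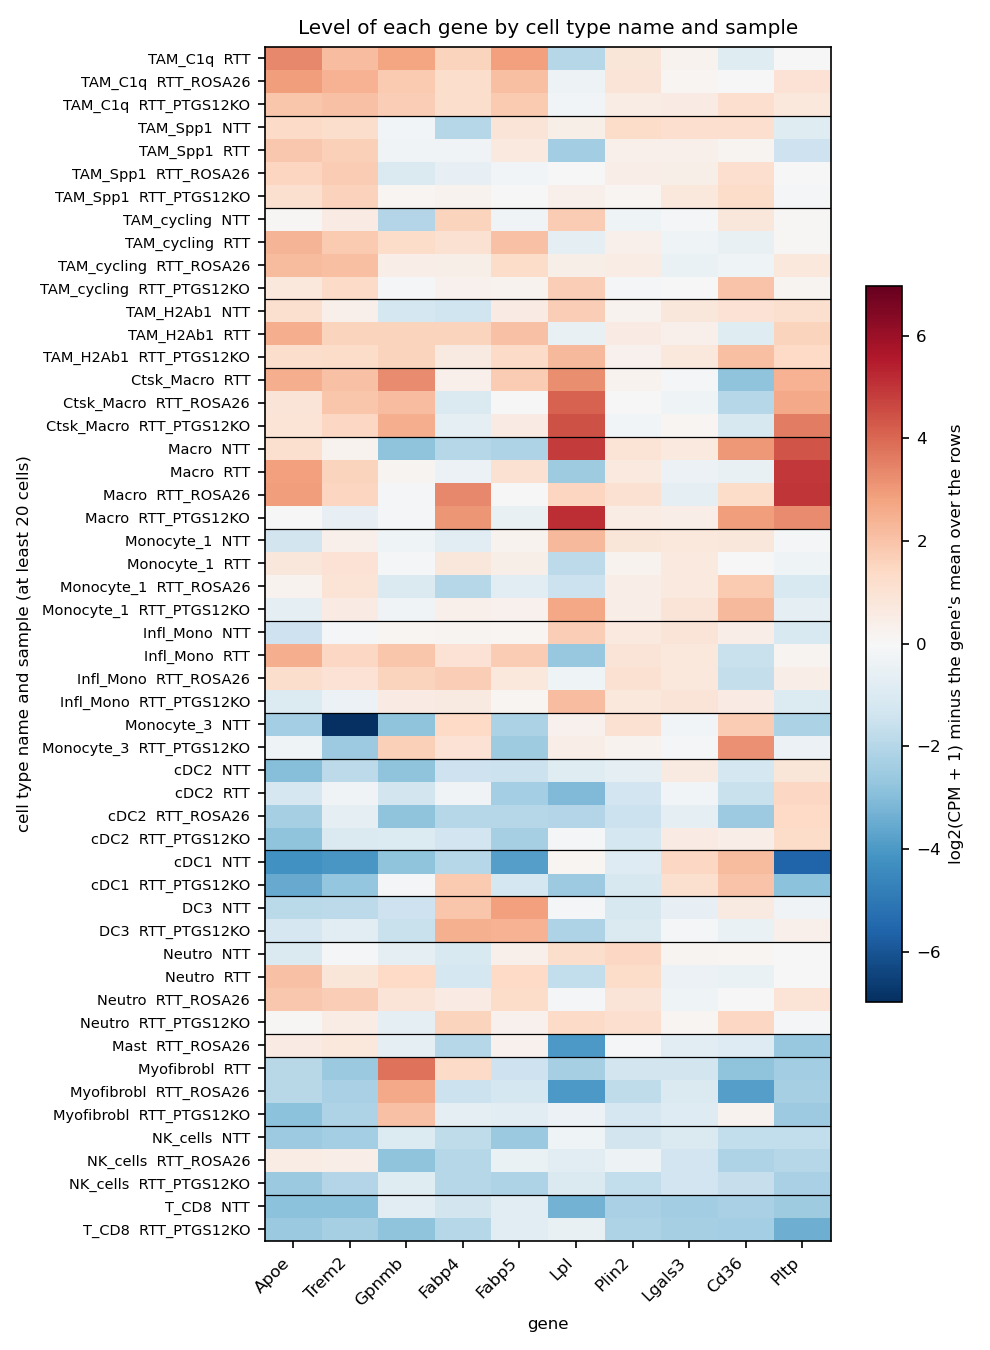
Level of each member (columns) by cell type name and sample (rows, groups of at least 20 cells), as log2(CPM + 1) minus the mean of that gene over the rows, so that colours compare groups within a gene and not genes with each other. Lpl is high in Macro of NTT (475 CPM) and RTT_PTGS12KO (579 CPM) and in Ctsk_Macro, and Apoe is high in TAM_C1q.

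Apoe (chr7:19696109-19699188, minus strand, GRCm38), the main apolipoprotein made by macrophages, was lower in NTT and RTT_PTGS12KO than in the other samples. NTT macrophages held 6224 CPM and RTT macrophages 22273, against 15233 with RTT_ROSA26 and 7111 with RTT_PTGS12KO. Single loads lay at 5798 to 6906 CPM for NTT and 6931 to 7346 for RTT_PTGS12KO, under those of RTT_ROSA26 (14624 to 15636) and of RTT (21397 to 23051), so no ranges overlapped. Monocytes held 1199, 8468, 5591 and 1841 CPM, and the ranking of the samples was the same. The log2 ratio of NTT to RTT was -1.84 (95% interval -1.86 to -1.82) in macrophages and -2.82 (-2.84 to -2.80) in monocytes. With both pooled it was -3.79, or 13.8-fold lower in NTT. The ratio of RTT_PTGS12KO to RTT_ROSA26 was -1.10 in macrophages, -1.60 in monocytes and -1.48 in the pool. Ratios were also taken within each cell type name with at least 20 cells in both samples and 10 CPM in either. Over 8 such names, Apoe was lower in NTT in 8, with log2 ratios from -4.01 to -0.57 and a median of -1.94. It was lower in RTT_PTGS12KO than in RTT_ROSA26 in 10 of 11 names, from -3.10 to 0.06 with a median of -0.97. The value of -3.10 is that of natural killer (NK) cells, at 506 against 4339 CPM. The latter level rests on 26 cells, with 29.8% of the UMIs in 1 cell.

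By name, TAM_C1q held 30621 CPM of Apoe in RTT, 22274 with RTT_ROSA26 and 11391 with RTT_PTGS12KO. Apoe and Fabp5 are among the 10 leading genes of TAM_C1q, so its high level is part of how the cluster is defined. Macro cells held 6489, 21692, 22913 and 3041 CPM, so in RTT_ROSA26 they were slightly above TAM_C1q. Infl_Mono cells ranged from 1089 CPM in NTT and 1548 in RTT_PTGS12KO to 7082 in RTT_ROSA26 and 17616 in RTT. TAM_Spp1 cells stayed between 6455 and 11064 CPM. Monocytes held 64.0% of all Apoe UMIs of NTT and 74.4% of its UMIs of all genes, whereas macrophages held 95.7% of the Apoe UMIs of RTT and 83.8% of its UMIs of all genes.

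Pltp (chr2:164839518-164857711, minus strand), which moves phospholipid between lipoproteins, was concentrated in Macro and Ctsk_Macro. Macro cells held 995, 1471, 1517 and 472 CPM, and Ctsk_Macro cells 256 CPM in RTT, 295 with RTT_ROSA26 and 572 with RTT_PTGS12KO. Every other name with at least 20 cells stayed at or below 141 CPM. Pooled macrophages held 81.4, 53.6, 98.2 and 84.8 CPM, and 76.4, 40.4, 79.6 and 62.9 CPM without Ctsk_Macro. NTT was thus above RTT in macrophages (log2 ratio 0.59, 0.43 to 0.75) but below it once monocytes were added (-0.35). Over names, Pltp was lower in NTT than in RTT in 6 of 8 (-1.27 to 0.62, median -0.25), lower in RTT_PTGS12KO than in RTT_ROSA26 in 8 of 10 (-1.68 to 0.95, median -0.25) and higher in RTT_ROSA26 than in RTT in 7 of 9 (-0.79 to 1.44, median 0.24). The gene overlaps Ctsa on the other strand.

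Trem2 (chr17:48346401-48354147, plus strand), the lipid-sensing receptor, was also lower in NTT than in RTT. Macrophages held 195, 500, 573 and 382 CPM, and the load ranges of the samples did not overlap. Monocytes held 149, 275, 244 and 172 CPM, and there the loads of RTT (268 to 287) and RTT_ROSA26 (208 to 301) overlapped. The ratio of NTT to RTT was -1.35 (-1.46 to -1.25) in macrophages and -0.88 (-0.96 to -0.79) in monocytes. The ratio of RTT_PTGS12KO to RTT_ROSA26 was -0.58 in macrophages and -0.51 in monocytes, under 2-fold. Over names, Trem2 was lower in NTT in 8 of 8 (-1.62 to -0.48, median -1.19) and lower in RTT_PTGS12KO in 10 of 11 (-2.53 to 0.11, median -0.49). The value of -2.53 is that of NK cells (29.4 against 174 CPM), with 26 cells in RTT_ROSA26. TAM_C1q cells held 569 CPM in RTT, 687 with RTT_ROSA26 and 516 with RTT_PTGS12KO. In Macro cells the spread was wider, with 147, 373, 348 and 82.98 CPM.

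Cd36 (chr5:17781690-17888801, minus strand), a receptor for fatty acids and oxidised lipoproteins, had another order of samples. Macrophages held 24.4, 8.79, 13.5 and 43.5 CPM, with no overlap of the load ranges. Monocytes held 22.5, 11.01, 25.9 and 62.8 CPM, and the RTT_ROSA26 value rests on 26 UMIs, with loads from 14.6 to 44.6 CPM. RTT_PTGS12KO was therefore highest and RTT lowest in both kinds of cell. The log2 ratio of RTT_PTGS12KO to RTT_ROSA26 was 1.62 (1.53 to 1.703) in macrophages and 1.24 (0.71 to 1.83) in monocytes. The ratio of NTT to RTT was 1.37 (1.07 to 1.66) in macrophages and 0.97 (0.60 to 1.35) in monocytes. Over names, Cd36 was higher in NTT than in RTT in 7 of 7 (0.60 to 3.58, median 1.34), and higher in RTT_PTGS12KO than in RTT_ROSA26 in 9 of 9 (0.14 to 4.08, median 1.65). Monocyte_3 cells of RTT_PTGS12KO held 127 CPM and the 21 Macro cells of NTT 116 CPM, the highest values by name, while Ctsk_Macro cells held 1.00 to 5.43 CPM.

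Lpl (chr8:68880491-68907448, plus strand) separated the samples in monocytes most of all members. Monocytes held 72.4 CPM in NTT and 102 in RTT_PTGS12KO, but 3.06 in RTT and 8.98 in RTT_ROSA26. The latter values rest on 15 and 9 UMIs. The log2 ratio in monocytes was 4.18 (3.60 to 4.76) between NTT and RTT and 3.37 (2.51 to 4.33) between RTT_PTGS12KO and RTT_ROSA26, and 1.30 (0.17 to 2.33) between RTT_ROSA26 and RTT. Macro cells showed the same split, with 475, 1.95, 44.2 and 579 CPM, where the RTT value is 2 UMIs in 99 cells. The NTT value comes from 21 cells, with loads from 135 to 973 CPM.

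In macrophages the Lpl levels were closer, at 54.9, 13.3, 39.1 and 51.3 CPM. Much of this signal was in Ctsk_Macro, the cells led by osteoclast genes, which held 915 of the 1298 macrophage Lpl UMIs of RTT, 2404 of 3890 with RTT_ROSA26 and 1362 of 4609 with RTT_PTGS12KO. Without Ctsk_Macro the levels were 48.8, 4.17, 16.3 and 37.7 CPM. The log2 ratio of NTT to RTT was then 3.27 in place of 1.97, and that of RTT_PTGS12KO to RTT_ROSA26 was 1.16 in place of 0.38. Over names, Lpl was higher in NTT than in RTT in 7 of 7 (2.24 to 7.33, median 2.96) and higher in RTT_PTGS12KO than in RTT_ROSA26 in 10 of 10 (0.15 to 4.199, median 1.69). RTT_ROSA26 was also above RTT in 7 of 7 names (0.87 to 3.94, median 1.65). These names come from 1 sample of each line, so their direction is not replicated. TAM_C1q cells held little, with 3.05 CPM in RTT, 11.7 with RTT_ROSA26 and 13.1 with RTT_PTGS12KO. Macrophages exceeded monocytes in Lpl by log2 ratios of 1.81 in RTT and 2.00 in RTT_ROSA26, but were below them in NTT (-0.39) and RTT_PTGS12KO (-0.98). The values of RTT and RTT_ROSA26 rest on 15 and 9 monocyte UMIs and include Ctsk_Macro, without which macrophages of RTT and RTT_ROSA26 held 4.17 and 16.3 CPM against 3.06 and 8.98 in monocytes.

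**Figure D2:**
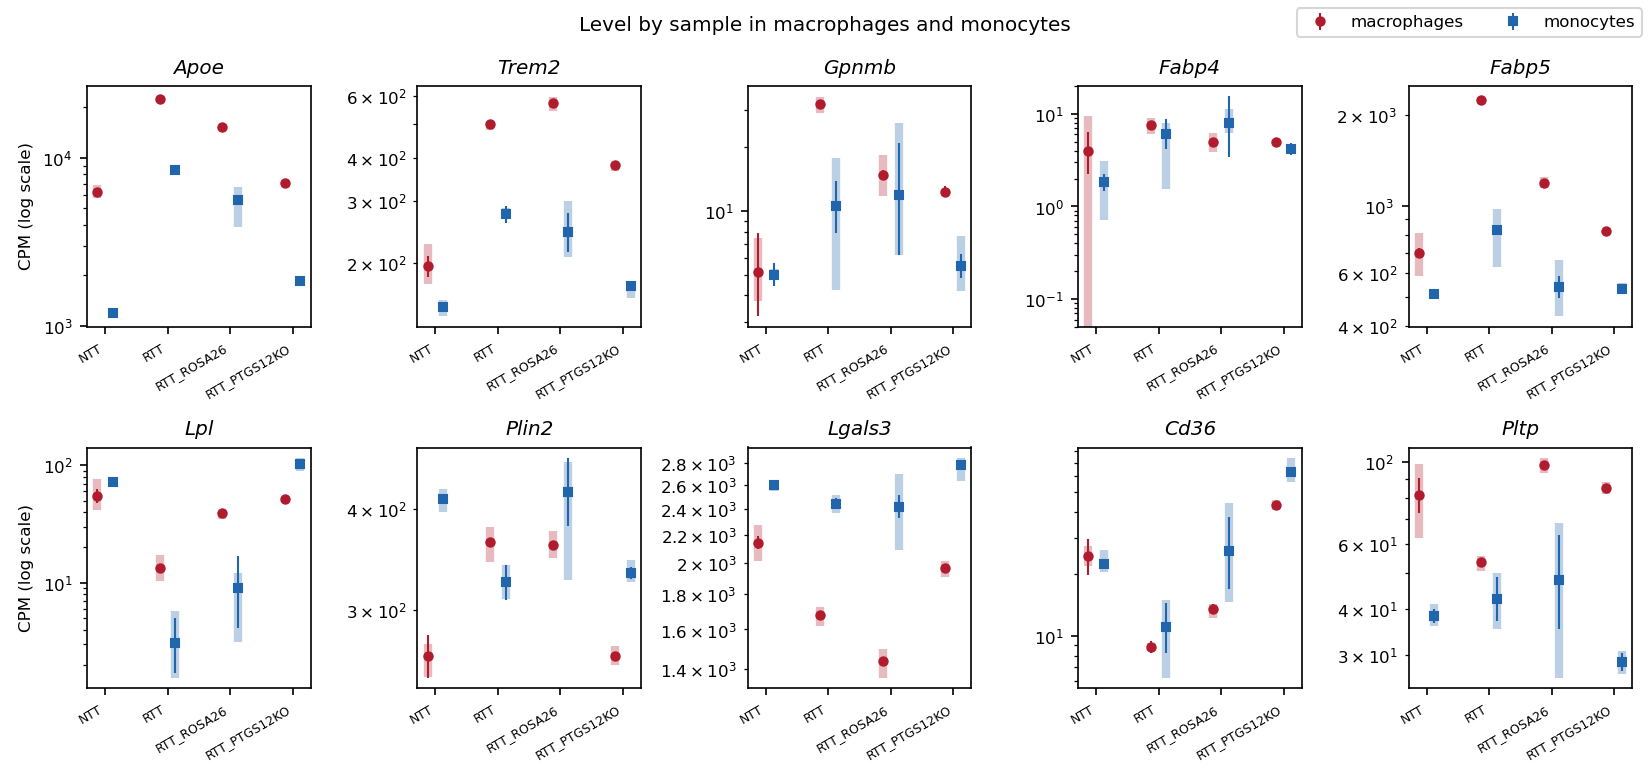
Level of each member in macrophages (circles) and monocytes (squares) of the 4 samples, in CPM on log axes; thin bars are 95% counting intervals and wide pale bars the range over the 3 loads, and the bar of Fabp4 in NTT macrophages reaches the bottom of its panel because 1 load had 0 UMIs. Apoe, Trem2 and Fabp5 are lower in NTT and RTT_PTGS12KO than in RTT macrophages, and Cd36 and Lpl are lowest in RTT.

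Fabp5 (chr3:10012548-10016607, plus strand), a fatty acid-binding protein of many cell types, was lower in NTT than in RTT in both kinds of cell. Macrophages held 696, 2242, 1192 and 822 CPM. Monocytes held 509, 831, 539 and 531 CPM, with RTT the highest, although the loads of RTT (628 to 977 CPM) and RTT_ROSA26 (432 to 659) overlapped. The log2 ratio of NTT to RTT was -1.69 in macrophages and -0.71 in monocytes. The ratio of RTT_PTGS12KO to RTT_ROSA26 was -0.54 (-0.55 to -0.52) in macrophages and -0.02 (-0.14 to 0.11) in monocytes, an interval that holds 0. TAM_C1q cells held 3209 CPM in RTT, 1866 with RTT_ROSA26 and 1559 with RTT_PTGS12KO, while TAM_Spp1 cells held 810, 711, 391 and 431 CPM. CCR7+ dendritic cells (DC3) were also high, with 3250 CPM in NTT and 2394 in RTT_PTGS12KO. Over names, Fabp5 was lower in NTT than in RTT in 6 of 8 (-3.26 to 0.88, median -1.24). It was lower in RTT_PTGS12KO than in RTT_ROSA26 in 7 of 11 (-1.69 to 1.04, median -0.32). The value of -1.69 is that of NK cells (99.5 against 324 CPM), with 26 cells in RTT_ROSA26. Fabp5 was lower in RTT_ROSA26 than in RTT in 8 of 10 names (-1.81 to 0.38, median -0.82).

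Fabp4 (chr3:10204088-10208576, minus strand), the fatty acid-binding protein typical of fat cells, was low, under 10 CPM in pooled macrophages and monocytes alike. Macrophages held 3.94, 7.54, 5.01 and 4.96 CPM. In NTT, 15 of the 16 UMIs came from 1 cell, and without it the level was 0.247 CPM. Macro cells of RTT_ROSA26 and RTT_PTGS12KO held 38.8 and 32.1 CPM, of which 37.2% and 58.5% sat in 1 cell each. In macrophages, RTT_PTGS12KO against RTT_ROSA26 gave a log2 ratio of -0.01 (-0.17 to 0.14), an interval that holds 0. The 6 markers of adipocytes summed to between 0.281 and 0.662 CPM in the monocytes and macrophages of the samples, with Adipoq, Lep or Cidec at 0 in each sample.

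Plin2 (chr4:86648386-86670060, minus strand), the lipid droplet coat, differed by less than 2-fold in each pooled comparison. Macrophages held 263, 365, 361 and 263 CPM. The loads put NTT (248 to 272) with RTT_PTGS12KO (257 to 271), and RTT (344 to 380) with RTT_ROSA26 (348 to 376). Monocytes held 412, 325, 420 and 334 CPM and did not follow this split. The log2 ratio of NTT to RTT was -0.47 (-0.56 to -0.38) in macrophages and 0.34 (0.27 to 0.42) in monocytes. By name, Plin2 was higher in NTT than in RTT in 5 of 8 (-0.64 to 0.92, median 0.20). It was lower in RTT_PTGS12KO than in RTT_ROSA26 in 7 of 11 (-1.33 to 0.60, median -0.32). The value of -1.33 is that of NK cells (71.4 against 181 CPM), with 26 cells in RTT_ROSA26. Neutrophils (Neutro) exceeded macrophages for Plin2 in all 4 samples, with 636, 571, 441 and 522 CPM.

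Gpnmb (chr6:49036546-49070929, plus strand), a glycoprotein of lysosome-rich cells, was low in most groups. Macrophages held 5.17, 32.1, 14.8 and 12.4 CPM, and the NTT value rests on 21 UMIs. Monocytes held 5.02, 10.6, 12.0 and 5.52 CPM, with wide loads in RTT (4.24 to 17.8) and RTT_ROSA26 (6.21 to 26.0). The RTT_ROSA26 value rests on 12 UMIs, 7 of them in 1 cell, and was 5.01 CPM without that cell. The log2 ratio of NTT to RTT was -2.42 (-2.98 to -1.89) in macrophages, and RTT_ROSA26 was itself below RTT there (-1.06, -1.15 to -0.98). The ratio of RTT_PTGS12KO to RTT_ROSA26 was -0.25 (-0.35 to -0.14) in macrophages. By name, Gpnmb was lower in NTT than in RTT in 4 of 4 (-3.34 to -1.83, median -2.43) and lower in RTT_PTGS12KO than in RTT_ROSA26 in 4 of 5 (-1.52 to 0.42, median -0.57). Ctsk_Macro cells held 67.8 CPM in RTT, 29.5 with RTT_ROSA26 and 39.8 with RTT_PTGS12KO, while TAM_Spp1 cells held at most 6.73 CPM. The highest level by name, 93.6 CPM, was in Myofibrobl cells of RTT. In these Myofibrobl cells the markers of fibroblasts summed to 1014.7 CPM and those of melanoma cells to 0.114 CPM, with 5 of 6 at 0.

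Lgals3 (chr14:47367751-47386160, plus strand), the galectin-3 gene and a general marker of phagocytes, was found in all cell types. Macrophages held 2143, 1679, 1440 and 1966 CPM, and monocytes 2603, 2442, 2419 and 2779 CPM. The loads of NTT macrophages (2013 to 2277) lay above those of RTT (1619 to 1727). NTT was above RTT in 8 of 8 names (0.07 to 1.10, median 0.54) and RTT_PTGS12KO above RTT_ROSA26 in 11 of 11 (0.04 to 1.19, median 0.43). In macrophages these log2 ratios were 0.35 and 0.45, and in monocytes 0.09 and 0.20. Type 1 dendritic cells (cDC1) had the highest level by name, with 4115 CPM in NTT and 3332 in RTT_PTGS12KO.

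**Figure D3:**
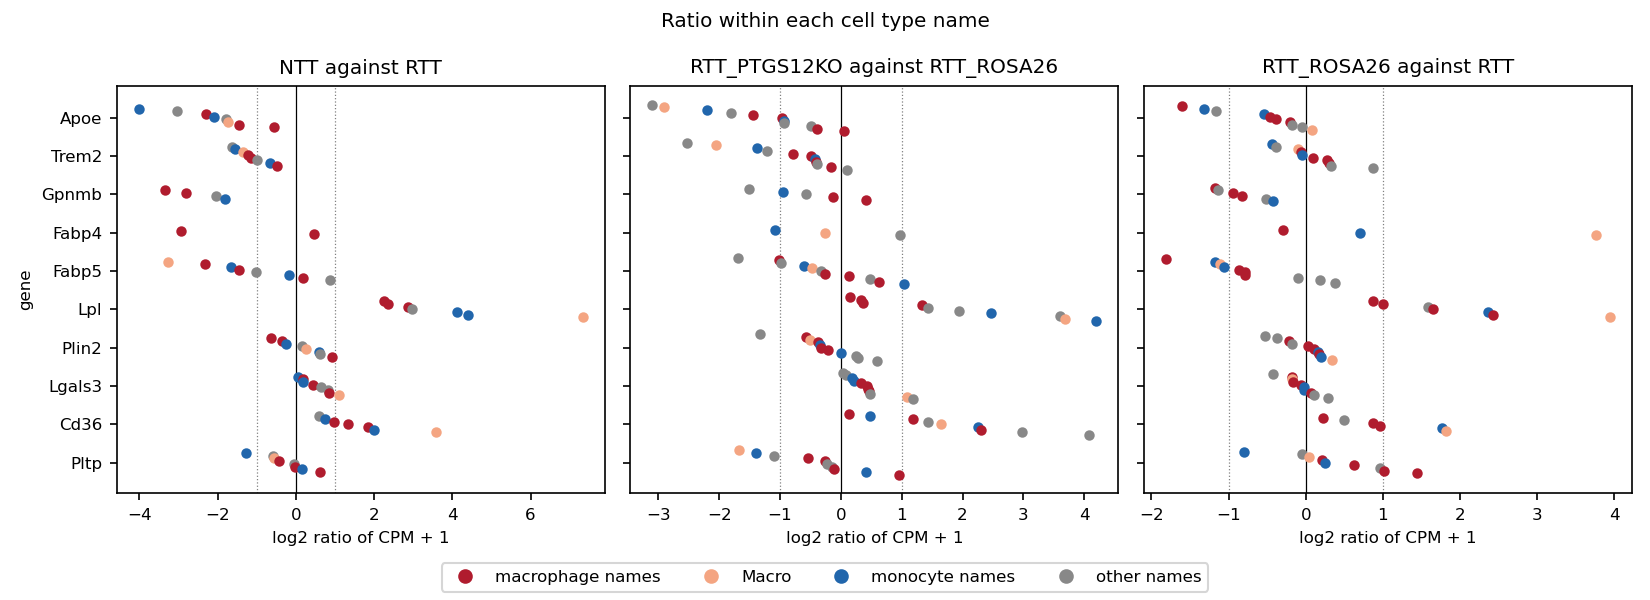
Log2 ratio of CPM + 1 of each member in the 3 comparisons; each point is 1 cell type name, coloured as a macrophage name, Macro, a monocyte name or another name, and dotted lines mark 2-fold. Lpl is positive in 7 of 7, 10 of 10 and 7 of 7 names, and Apoe is negative in 8 of 8, 10 of 11 and 9 of 10 names.

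Among macrophage names the members peaked in different cells. TAM_C1q exceeded TAM_Spp1 in Gpnmb, by log2 ratios of 2.99 in RTT, 2.83 with RTT_ROSA26 and 1.55 with RTT_PTGS12KO. Cd36 was lower in TAM_C1q than in TAM_Spp1 in RTT (-1.06) and RTT_ROSA26 (-1.16), and in RTT_PTGS12KO the interval held 0 (-0.11, -0.27 to 0.04). Against Ctsk_Macro, TAM_C1q had log2 ratios for Lpl of -5.24, -4.47 and -4.65 in the RTT, RTT_ROSA26 and RTT_PTGS12KO samples, and for Pltp of -2.44, -1.63 and -2.85. For Cd36 they were 1.96, 1.99 and 2.33, in favour of TAM_C1q. Since the names come from clusters of the same counts, these values describe the clusters and test nothing. Over the 16 macrophage groups of at least 50 cells, Apoe ran with Fabp5 (Pearson r = 0.89) and Plin2 (0.88), and Lpl ran with Pltp (0.81) and against Plin2 (-0.70). The groups share samples, depth and clusters, so these coefficients are descriptions.

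Shares of cells with a UMI were compared after each cell was thinned to 2000 UMIs, leaving out 27 shallower cells, since median depth ran from 5934 to 15570 UMIs over the macrophages and monocytes of the samples. Lpl was found in 9.50% of NTT monocytes (exact binomial 95% interval 8.80 to 10.2%), 1.15% of RTT (0.424 to 2.49%), 1.40% of RTT_ROSA26 (0.170 to 4.96%) and 13.03% of RTT_PTGS12KO monocytes (12.0 to 14.1%). Before thinning these shares were 22.5, 2.30, 5.56 and 31.9%. Natural killer (NK) cells, which should lack Lpl, gave 0.849% in NTT and 1.63% in RTT_PTGS12KO, from median depths of 7669 and 15524 UMIs. The RTT and RTT_ROSA26 monocyte shares lay within the intervals of these NK shares (0.312 to 1.84% and 0.533 to 3.77%), and the other monocyte shares lay above them. In Macro cells the Lpl shares were 57.1, 1.01, 8.59 and 42.7%, and before thinning 85.7, 2.02, 22.3 and 76.0%.

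Cd36 was found in 4.05, 1.92, 4.90 and 7.82% of monocytes after thinning and in 9.62, 6.32, 11.1 and 26.1% before, beside 0.283% of NTT and 0.654% of RTT_PTGS12KO NK cells after thinning. Trem2 was found in 24.4, 61.8, 64.3 and 50.9% of macrophages after thinning and in 66.6, 96.8, 94.3 and 94.7% before, with an NK background of 3.11% in NTT and 3.92% in RTT_PTGS12KO. NTT macrophages thus stood apart in Trem2 at equal depth. Gpnmb was found in 0.325% of NTT macrophages, under the NK share of 0.707%, and in 4.18, 2.32 and 1.81% of macrophages of the other samples. At the same depth, 5 or more of the 10 members were seen in 8.77, 26.7, 26.4 and 18.9% of macrophages and in 7.20, 9.60, 10.5 and 7.80% of monocytes.

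**Figure D4:**
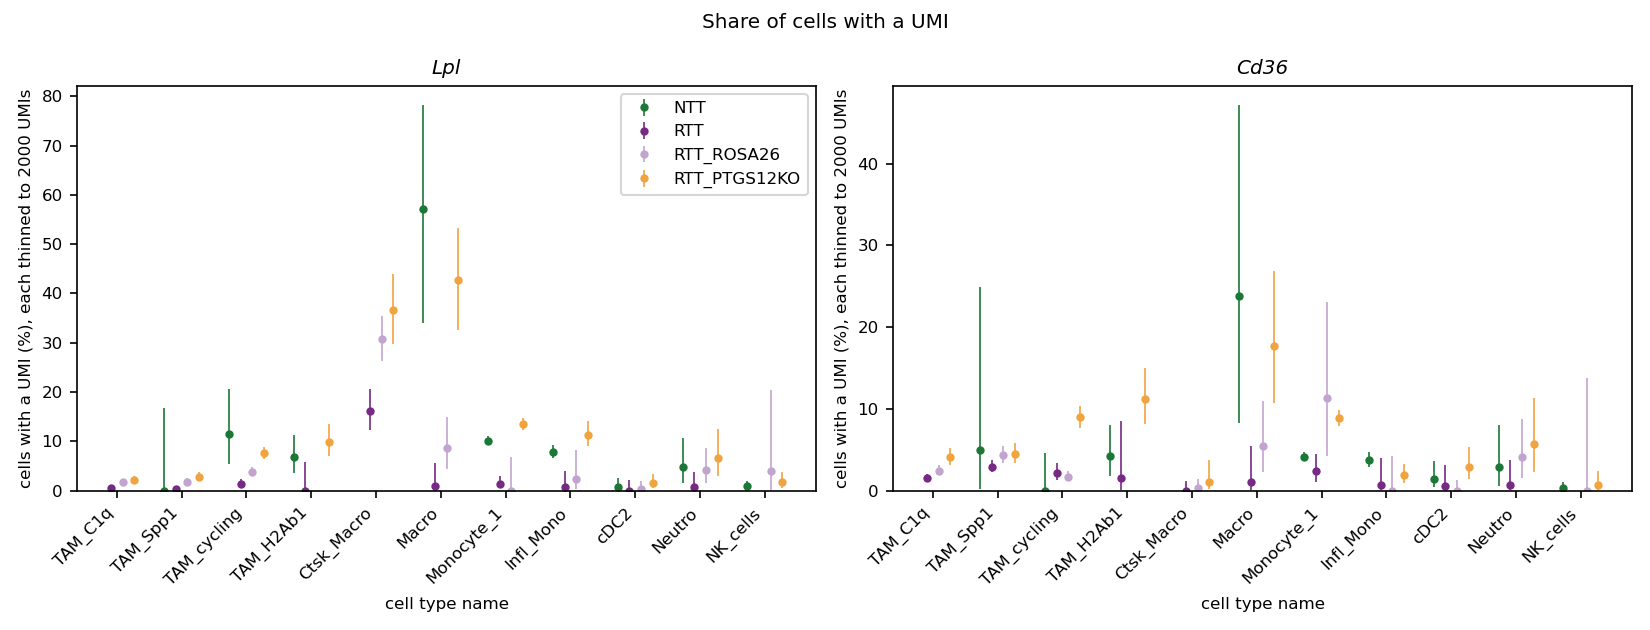
Share of cells with at least 1 UMI of Lpl (left) and Cd36 (right) after thinning to 2000 UMIs, in percent, by cell type name, with 1 coloured point per sample and exact binomial 95% intervals. In Macro cells the Lpl share is 57.1% in NTT and 42.7% in RTT_PTGS12KO, against 1.01% in RTT and 8.59% in RTT_ROSA26.

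Apoe was also counted in cells that are not thought to make it. NK cells held 524 CPM in NTT (709 cells) and 506 CPM in RTT_PTGS12KO (306 cells), or 8.41% and 7.11% of the macrophage level. The 26 NK cells of RTT_ROSA26 held 4339 CPM, of which 29.8% was in 1 cell. Neutrophils held 1503, 12386, 10981 and 3138 CPM, which is 24.1, 55.6, 72.1 and 44.1% of the macrophage level, while their median cell held 396, 964, 3187 and 459 CPM. The macrophage complement gene C1qa stood at 27.0, 53.3, 76.3 and 43.3% of its macrophage level in the same neutrophils, close to the shares for Apoe. All 8 markers of macrophages were above 0 in Neutro cells of each sample and summed to between 4122 and 8813 CPM. Neutrophils were above the monocytes of the same sample in all 4 samples, where monocytes held 1199, 8468, 5591 and 1841 CPM. The same neutrophils held Trem2 at 113, 228, 419 and 179 CPM and Fabp5 at 564, 1144, 1070 and 539 CPM. For Fabp5 this was above the monocytes in all 4 samples, and for Trem2 in RTT_ROSA26 and RTT_PTGS12KO. Free RNA and doublets were not separated from expression, and their part in the Apoe, Trem2 and Fabp5 ratios was not tested.

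**Figure D5:**
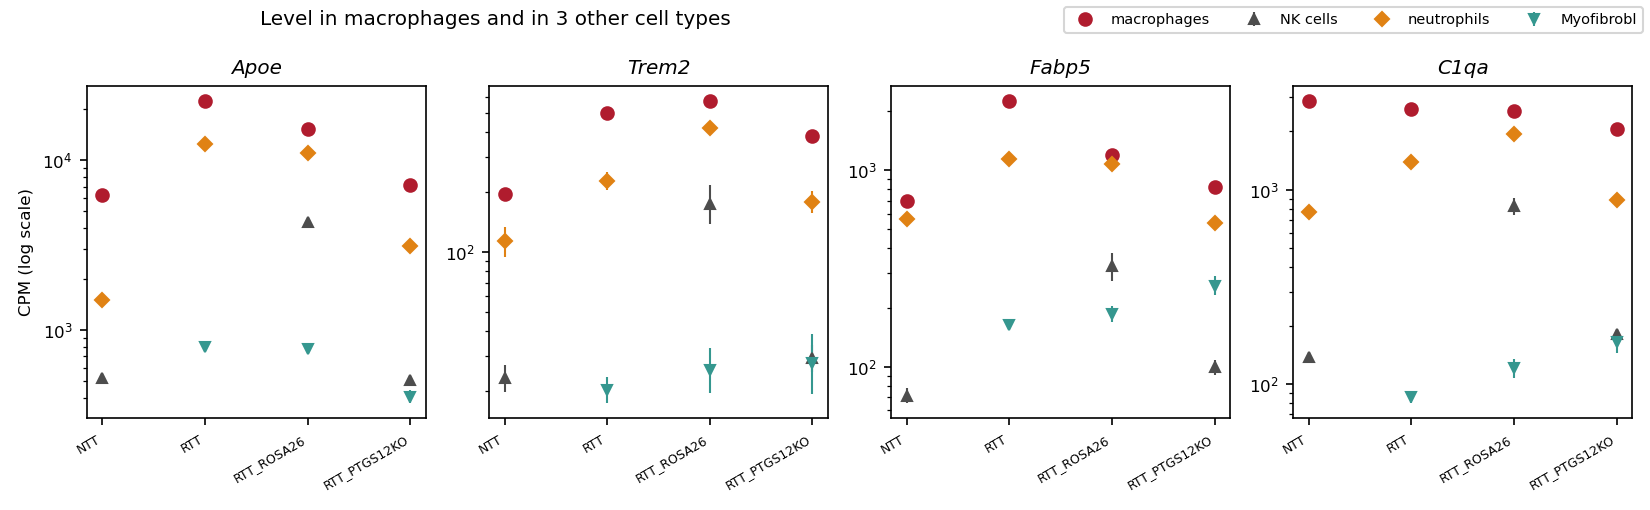
Level of Apoe, Trem2, Fabp5 and C1qa in macrophages, NK cells, neutrophils and Myofibrobl cells of the 4 samples, in CPM on log axes with 95% counting intervals; groups under 20 cells are not drawn. Neutrophils of RTT_ROSA26 hold 72.1% of the macrophage level of Apoe and 76.3% of that of C1qa.

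Markers of other cell types were summed in the monocytes and macrophages. The 6 markers of melanoma cells summed to between 0.167 and 0.341 CPM, with Tyr and Tyrp1 at 0 in each sample, and those of endothelial cells to between 15.7 and 49.5 CPM. The 6 markers of platelets and megakaryocytes summed to 220, 4045, 2776 and 878 CPM, with 3, 5, 4 and 5 of them above 0. The ranking of samples was that of Apoe, but the platelet integrin gene Itga2b stood at 0.0899, 0.146, 0.0994 and 0.114 CPM and Gp9 at 0 to 0.00974 CPM. Pf4, which is on this list, was at 793, 4158, 2775 and 1170 CPM in macrophages. The 5 markers of osteoclast-like cells were all above 0 and summed to 187, 2182.5, 2781 and 1007 CPM.

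Other genes of lipid handling were taken from 5 lists, also chosen with earlier results of these data known. The share over all genes beside a count is thus a description and not a test. In the list of cholesterol efflux and LXR genes, 16 of 17 reached 10 CPM in NTT or RTT, with 2 at least 2-fold higher in NTT, 3 lower (7.74% and 7.94% of all genes were) and a median log2 ratio of 0.09 beside -0.11 over all genes. The cholesterol exporter gene Abcg1 was higher in NTT (126 against 32.5 CPM, log2 ratio 1.92), as was the LXR gene Nr1h3 (1.06). The other main exporter gene, Abca1, was lower (82.4 against 377 CPM, -2.18), as were the apolipoprotein gene Apoc2 (-1.94) and the lipoprotein receptor gene Lrp1 (-1.12), which was named after its value was seen. Within monocytes Nr1h3 (0.90) and Lrp1 (-0.45) were under 2-fold. Abca1 and Abcg1, both known LXR targets, thus differed in direction, and did so in macrophages (-1.71 and 1.86) and in monocytes (-1.001 and 1.24). In RTT_PTGS12KO against RTT_ROSA26, 15 of the list reached 10 CPM, and Abca1 was the 1 at least 2-fold lower (149 against 359 CPM, -1.26), as were 1.97% of all genes. Its ratio was under 2-fold within macrophages (-0.93) and within monocytes (-0.98).

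Of the 16 genes of lipid droplets and fat use, 12 reached 10 CPM in NTT or RTT, with the fatty acid ligase gene Acsl1 higher in NTT (1.76), Acsl3 lower (-1.76) and a median of -0.23. Over all genes 7.74% were higher and 7.94% lower in this comparison, so 1 of 12 in each direction is near the background. Acsl1 was under 2-fold in macrophages (0.77, and 1.29 in monocytes), and Acsl3 in monocytes (-0.87, and -1.22 in macrophages). Hilpda, named after its value was seen, was under 2-fold in the pool (-0.92) but past it in macrophages (-1.65, and 0.0027 in monocytes). In the other comparisons 0 of 12 were past 2-fold. Of the 11 genes of the PPAR list, 5 reached 10 CPM in NTT or RTT, with the coactivator gene Ppargc1b higher (1.11) and the fatty acid transporter gene Slc27a1 (-2.20) and the receptor gene Rxra (-1.36) lower. Ppargc1b was under 2-fold in macrophages (0.66), and Slc27a1 (-0.64) and Rxra (-0.56) were in monocytes. Slc27a1 was the 1 of 3 past 2-fold in RTT_PTGS12KO against RTT_ROSA26 (-1.64), where 1.97% of all genes were lower, with -1.32 in macrophages and -0.34 in monocytes. All 10 genes of Trem2 signalling reached 10 CPM. The adaptor gene Blnk was the 1 past 2-fold, with -2.27 in NTT against RTT and -1.18 in RTT_PTGS12KO against RTT_ROSA26, but its ratio of NTT to RTT was 0.04 in macrophages alone. That of RTT_PTGS12KO to RTT_ROSA26 was -0.78 in macrophages and 0.57 in monocytes. A count of 1 of 10 is near the 7.94% of all genes lower in NTT.

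In the list of lysosome and other lipid-associated macrophage genes, all 21 reached 10 CPM in NTT or RTT, 10 were at least 2-fold lower in NTT (7.94% of all genes were) and 0 higher, and the median was -0.98 beside -0.11 over all genes. Syngr1 (4.44 against 110 CPM, -4.35) and the secreted phosphoprotein gene Spp1 (248 against 4683 CPM, -4.24) had the lowest ratios, which were closer to 0 within macrophages (-2.19 and -2.24) and within monocytes (-2.53 and -3.00). Within macrophages 7 of 21 were lower (3.83% of genes were) and the median was -0.30, and within monocytes 4 of 20 were lower (1.65%) and the median was -0.15. In RTT_PTGS12KO against RTT_ROSA26, 4 of 20 were lower (1.97%) and the median was -0.36 beside -0.14 over all genes. These were Syngr1 (-1.79), the proton pump subunit gene Atp6v0d2 (-1.60) and, named after their values were seen, the tetraspanin gene Cd63 (-1.25) and the protease gene Ctsd (-1.14). Atp6v0d2 is also a marker of osteoclast-like cells and a leading gene of Ctsk_Macro. That name had 401 cells in RTT_ROSA26 and 188 in RTT_PTGS12KO. Within macrophages 2 of 20 were lower (0.969% of genes were) with a median of -0.28, and within monocytes 1 of 20 (2.47%) with a median of -0.10. Cd63 (-0.85) and Ctsd (-0.96) were under 2-fold in macrophages, and Ctsd was at -0.00027 in monocytes. Between RTT_ROSA26 and RTT, 0 of 20 were past 2-fold in either direction, and the median was 0.05. The medians of the PPAR list were -0.21, -0.64 and -0.13 in the 3 comparisons, those of Trem2 signalling 0.12, -0.15 and 0.11, and those of the droplet and efflux lists between -0.12 and 0.04 in the last 2.

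The genes most like each member were sought over 42 groups of cell type name and sample with at least 50 cells, among 7096 genes, by Pearson r of log2(CPM + 1). Apoe was most like Pf4 (0.95) and Abca1 (0.94), and Trem2 most like Dab2 (0.93) and Atp13a2 (0.92). Apoe and Trem2 had an r of 0.91 with each other. Plin2 was most like Zeb2 (0.91) and Sdcbp (0.90), Lgals3 like Vill and BC028528 (both 0.86), and Gpnmb like Slc6a8 (0.84) and Akr1b8 (0.79). Fabp5 was most like Rap2b (0.84) and Clptm1 (0.78), and Fabp4 like Rap2b (0.67) and Marcks (0.66). Cd36 was most like Sdc3 (0.82) and Ctsc (0.77), Pltp like Fcgrt (0.83) and Gpx1 (0.80), and Lpl like Flii (0.75) and Clec12a (0.74). The groups share libraries and depth, so these values too are descriptions.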

How the data were processed

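CD45+ cells of 4 tumour samples, labelled with multiplexing oligos and pooled in the same droplets, were sequenced in 3 chip loads. Per the labels and methods, the authors used Cell Ranger with mm10 and Seurat 4.3.0, and deposited UMI counts per gene and cell with cell type names. All deposited cells passed the authors' filter (more than 1000 detected genes, less than 15% mitochondrial reads and less than 40% ribosomal reads). How the authors treated doublets beyond the multiplexing labels is not given in the sources used here, and no doublet caller was run.

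Counts were summed per sample and cell type and divided by total UMIs (CPM), with exact Poisson 95% intervals. Samples were compared as log2 ratios of CPM + 1 with intervals combined from both Poisson limits. A gene was called at a difference of 2-fold or more if it reached 10 CPM in either sample. With 1 sample per group no p-value, SD or SE was computed. Names with under 20 cells were not compared. Shares of cells were taken after thinning to 2000 UMIs. Total UMIs were 69332486 (NTT), 116698483 (RTT), 110210969 (RTT_ROSA26) and 146829369 (RTT_PTGS12KO). Intervals cover counting error only.

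Named genes were the 10 members, the companion genes past 2-fold with the 2 highest and 2 lowest ratios per list, and the 2 genes most like each member. The members and lists were chosen with earlier results of these data known. Gene positions are from GENCODE on GRCm38, and promoters from RefSeq on GRCm38.p6. On simulated counts for NTT against RTT (6887 genes), 99.5% of 200 changed genes were recovered within 0.25 log2 units. These counts were drawn with Poisson error only, so the recovery says nothing about differences between tumours. Tools were Python 3.11.15, numpy 2.4.6, scipy 1.17.1, pandas 2.3.3, matplotlib 3.10.9, and R 4.3.3 with edgeR 4.0.16 for TMM factors only. Alternatives were other pseudocounts, scalings, cell filters and sets of cells, and each load alone. Values of 1 gene of the companion lists are not reported here.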

Additional observations from a re-analysis of the deposited data

Results flagged for a closer look

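Plin2 in NTT against RTT had ratios of opposite sign in the 2 kinds of cell. The log2 ratio was 0.34 (95% counting interval 0.27 to 0.42) in monocytes, from 412 and 325 CPM, and -0.47 (-0.56 to -0.38) in macrophages, from 263 and 365 CPM. NTT had 308 macrophages, most of them TAM_H2Ab1, and RTT had 522 monocytes. With 1 sample per group, the difference between the 2 kinds of cell was not tested.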

How the results depend on the processing

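No paired analysis was possible because all 4 groups are single samples. The 2 settings that leave out Ctsk_Macro or TAM_Spp1 were chosen after seeing the data. Of the counts of called members, in NTT against RTT the number higher was 1 with CPM + 10 and 1 in monocytes only, and the number lower was 1 in monocytes only. In RTT_PTGS12KO against RTT_ROSA26 the number higher was 2 with the mean of per-cell CPM, in monocytes only and without Ctsk_Macro. In RTT_ROSA26 against RTT the number lower was 0 with CPM + 10, without the 5% of cells with most UMIs, with cell type names weighted equally, in monocytes only and in load 3, and the number higher was 2 with names weighted equally. All other settings left the counts within 1.5 times.

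The median log2 ratio of the members in NTT against RTT was -0.35 and moved to -0.20 (TMM factors), -0.43 (without the 5% of cells with most UMIs, and mean of per-cell CPM), -0.18 (names weighted equally), -0.54 (Macro counted as macrophages), -0.56 (all CD45+ cells), -0.47 (macrophages only), -0.15 (monocytes only), -0.44 (load 2), -0.23 (load 3), -0.61 (without TAM_Spp1) and 0.018 (without Ctsk_Macro), the last with the other sign. In RTT_PTGS12KO against RTT_ROSA26 it was -0.50 and moved to -0.33 (CPM + 10, and monocytes only), -0.34 (TMM factors, and load 2), -0.30 (names weighted equally), -0.25 (macrophages only), -0.58 (without TAM_Spp1), -0.36 (load 1) and -0.60 (load 3). In RTT_ROSA26 against RTT it was -0.0039 and moved to -0.093 (TMM factors), 0.035 (names weighted equally), 0.042 (all CD45+ cells), 0.074 (monocytes only), 0.020 (without Ctsk_Macro), 0.021 (load 1) and -0.048 (without TAM_Spp1), so its sign is not settled.

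Members whose counting interval held no 0 changed sign in 7 cases. In NTT against RTT these were Plin2 (-0.47) and Pltp (0.59) in macrophages only and Pltp (0.018) without Ctsk_Macro. In RTT_ROSA26 against RTT they were Trem2 (-0.17), Gpnmb (0.16) and Fabp4 (0.34) in monocytes only and Fabp4 (0.014) in load 3. Where the interval held 0, Plin2 in RTT_ROSA26 against RTT (-0.0039) turned positive in 7 settings, up to 0.37 in monocytes only, and Fabp4 in RTT_PTGS12KO against RTT_ROSA26 (-0.077) with TMM factors (0.061) and in load 1 (0.17). The causes were not tested. Names weighted equally rest on 4 names. Depth limits Fabp4 in NTT macrophages, Lpl in the monocytes of RTT and RTT_ROSA26, and Gpnmb in those of RTT_ROSA26.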
